A study of Mus musculus with 1086 samples.

Results

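B6 is the short name of C57BL/6J, the inbred strain from which the mouse reference genome was read. The livers described here came from B6 males and were set against livers of males of the 7 other inbred strains that founded the Diversity Outbred stock, a mouse population bred from all 8 strains. The members are the columns of the founder table labelled B6, and 15 of 16 B6 animals entered the fits, of 128 founder animals in the table and 414 animals in the whole series. The comparison is with males of the other strains, 16 each of 129S1/SvImJ (129S1), A/J (AJ), CAST/EiJ (CAST), NZO/HILtJ (NZO), PWK/PhJ (PWK) and WSB/EiJ (WSB), and 15 of NOD/ShiLtJ (NOD). All were unmanipulated inbred mice bought from The Jackson Laboratory and kept at the University of Wisconsin Madison. All were 26 weeks old when livers were taken and snap frozen, except NZO males, which were 20 weeks old because many died on the richer diet. Each strain was split between a high fat diet, written HF, and chow, from 4 weeks of age. The B6 animals in the fits were 8 on HF and 7 on chow, and those of the other strains 55 on HF and 56 on chow. The labels give the founder diets in different ways, as 45% of kcal from fat with 34% sucrose by weight against 17% of kcal from fat, and as 22% against 6% fat by weight, so their exact make-up is not settled here. Each strain is 1 genotype, so animals of a strain are replicates of that genotype and not of strains in general.

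Inbred mouse strains differ in liver expression through sequence variants that act on single genes, through gained or lost gene copies and through variants that act on whole pathways. The liver makes most plasma proteins, complement and coagulation factors included, and it makes, stores and burns fatty acids and clears foreign compounds through cytochrome P450 enzymes and transferases. In mice the pattern of growth hormone release sets many of these genes to different levels in males and females, the major urinary proteins (MUPs) among them. B6 carries the widely used H-2b haplotype of the major histocompatibility complex (MHC), whose class I molecules show peptides to T cells.

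The values are liver messenger RNA levels from sequencing. In the deposited founder table the upper quartile of every animal was 1, and each value was multiplied here by 1 constant, 114.433, so that it reads on the scale of an average library as count equivalents (CE). CE are not divided by transcript length, so they are compared between animals for 1 gene and never between genes. Recovered totals were 6.19 to 10.6 M estimated counts in B6 (median 8.38), against 5.84 to 14 M in the other strains (median 8.30). The hepatocyte markers were present in every B6 animal, with a summed level of 529400 to 946500 (median 796900) CE in B6, against 411800 to 1318000 (median 731000) CE in the other strains. Of 14 markers of T, B and NK cells 13 had a B6 median under 10 CE, and of the pancreas markers, Ctrb1, Pnlip, Cpa1 and Amy2a5 were at 0 in every B6 animal. Differences are B6 minus the equal-weight mean of the 7 other strains on the log2(CE + 1) scale with the standard error (SE) of the model, and a gene is called where the limma test gives a Benjamini-Hochberg adjusted p under 0.05. Fold changes on this scale understate the change of genes with few counts.

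Animals that stood apart bear on the results. By the correlation of its strain-varying genes all but 2 of 128 animals were closest to their own label. The animal labelled B6 8438 was closest to NOD (r = 0.703, and -0.077 with B6), and the animal labelled NOD 8264 was closest to B6 (r = 0.642, and -0.007 with NOD), so both were left out. Of the 15 B6 animals kept, the chow animal 10224 and the HF animal 9937 lay far from their groups at many genes. Values without these 2 animals are given beside gene results and list counts that moved most. Each of 8 sequencing lanes held 1 library of every group of strain and diet, so lane and strain were not confounded.

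B6 differed from the mean of the other strains at 5958 of 13626 genes tested (43.7%), of which 3237 were higher (23.8%) and 2721 lower (20%). Most differences were small, with a median size of 0.41 on the log2 scale among called genes, and 914 were past 2-fold, 492 higher (3.61%) and 422 lower (3.1%). The share of called genes that were higher was 54.3%. When each animal was scaled to its total, 5684 genes were called higher and 1402 lower (80.2% higher), and with voom on recovered counts 5856 and 1280 (82.1% higher). Those scalings moved the median difference of all genes to 0.145 and 0.146, against 0.010 here, so small differences change side with the scaling. The 10 most abundant genes took 17.2 to 19.4% of the total in B6 (median 18.2%), against 16.4 to 32.6% in the other strains (median 21.8%), and their part in this shift was not tested. Without the animals 10224 and 9937, 2951 genes were called higher and 2428 lower.

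Set against each strain in turn, B6 was least different from NZO and most different from the wild-derived strains. The number of genes called was 3684 against NZO (27%), 4757 against AJ (34.9%), 4812 against 129S1 (35.3%) and 5287 against NOD (38.8%). It was 6613 against WSB (48.5%), 7174 against PWK (52.6%) and 8020 against CAST (58.9%). Genes higher in B6 outnumbered those lower against every strain. Against NZO 1892 were higher (13.9%) and 1792 lower (13.2%), against AJ 2513 (18.4%) and 2244 (16.5%), and against 129S1 2578 (18.9%) and 2234 (16.4%). Against NOD 2966 were higher (21.8%) and 2321 lower (17%), and against WSB 3481 (25.5%) and 3132 (23%). Against PWK 3939 were higher (28.9%) and 3235 lower (23.7%), and against CAST 4105 (30.1%) and 3915 (28.7%). These contrasts share the same B6 animals, and NZO was 6 weeks younger at death. Of the 5958 genes called against the mean, 302 were called with the same sign against all 7 strains (2.22% of genes tested), 185 of them higher (1.36%) and the others lower (0.859%). Those 302 genes are called apart below. A further 637 were called the same way against 6 strains, and 240 against only 1, so that many differences from the mean rest on some of the strains.

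**Figure D1:**
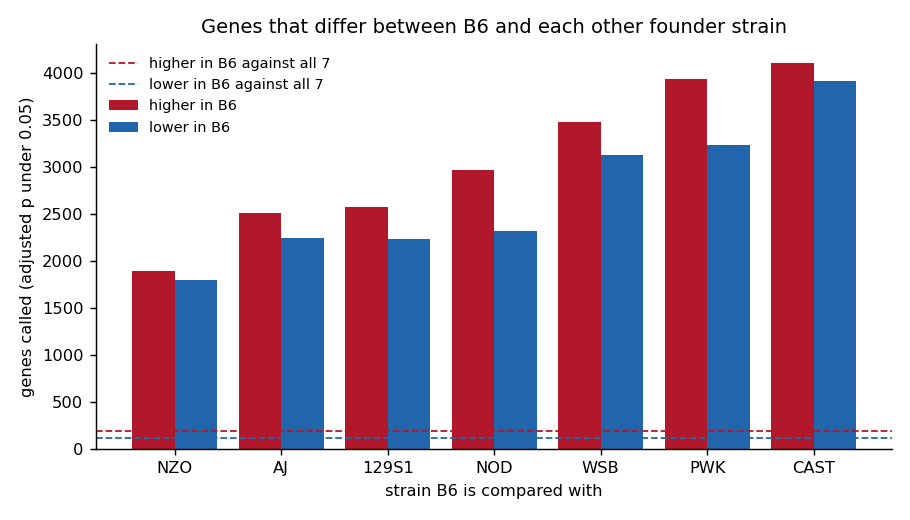
Number of genes called higher (red) and lower (blue) in B6 against each of the 7 other strains, of 13626 tested (limma, adjusted p under 0.05). Dashed lines mark the genes higher against all 7 strains, 185, and the fewer that were lower. Bars are shortest for NZO, with 3684 genes in both directions, and tallest for CAST, with 8020.

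At 10 genes (0.0734%) every B6 animal lay outside the range of all animals of the other strains, 3 above (0.022%) and 7 below (0.0514%). They are named here because they fell in that class, and no further test is placed on that choice. Pttg1, which encodes securin, the inhibitor of the separase that parts sister chromatids, had 83.9 to 151.7 (median 120) CE in B6, against 0 to 30.5 (median 4.85) CE in the other strains. The difference was 4.40 ± 0.20 on the log2 scale (limma, adjusted p = 1.67e-40), and NZO, the nearest strain, had a median of 10.8 CE. A2ml1, an alpha-2-macroglobulin-like protease inhibitor, had 47.5 to 131.5 (median 67.1) CE in B6, against 0 to 29.9 (median 8.56) CE in the others (3.04 ± 0.19, adjusted p = 1.58e-29). Cebpe, a transcription factor known from granulocyte maturation, had 14.1 to 46.4 (median 27.7) CE in B6, against 0 to 8.42 (median 0) CE in the others. Medians of Cebpe were 0 in 6 of the 7 other strains and 2.01 CE in CAST. None of these 3 genes shares a stretch of 300 bases or more at 95% identity with another gene, as set out below.

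On the low side, Wdfy1, an endosomal protein that binds a membrane phosphoinositide, was lower in every B6 animal than in any other. It had 64.1 to 119.6 (median 86.9) CE in B6, against 140.2 to 337 (median 197) CE in the other strains, a difference of -1.14 ± 0.05 (adjusted p = 1.1e-39). Strain medians of Wdfy1 were 166.6 CE in NZO, 167.1 in AJ, 169.5 in 129S1 and 179 in NOD. The wild-derived strains were higher still, with 214 CE in PWK, 245 in WSB and 260.4 in CAST. The other 6 genes below every other animal were Mup9, Hddc3, the pseudogene Tdg-ps, the predicted genes Gm11847 and Gm6969, and 1 gene without a symbol (ENSMUSG00000091282). Tdg-ps was at 0 in all 15 B6 animals, against 8.88 to 59.2 (median 26.1) CE in the others, so that the median of the others was at least 8.71-fold higher than a floor of 3 counts per library. Mup9, Hddc3, Tdg-ps, Gm11847 and Gm6969 share near-identical stretches with other genes, and their values may depend on how reads were shared out.

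**Figure D2:**
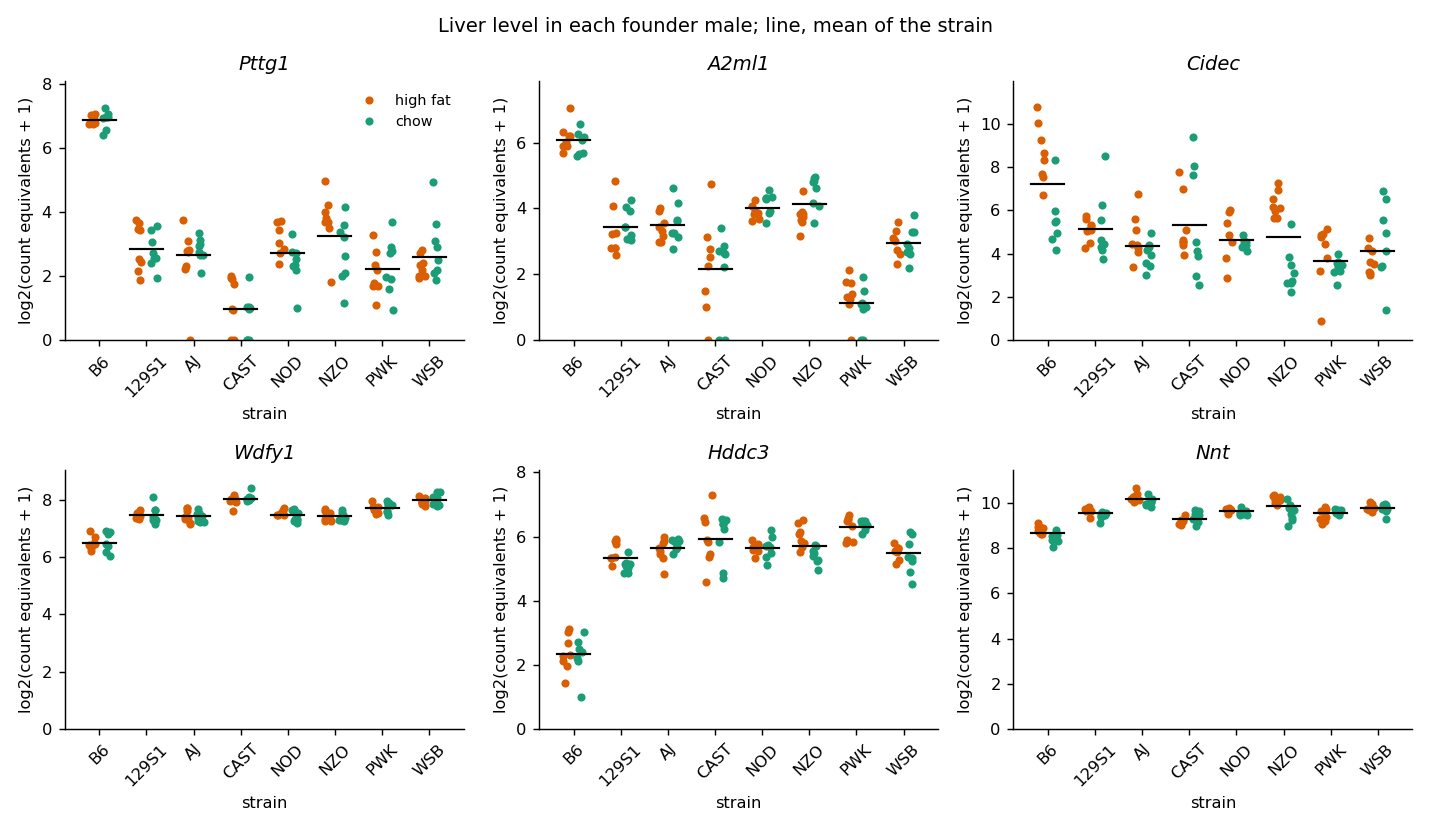
Levels of 6 genes as log2(count equivalents + 1) in every founder male in the fits, by strain with B6 at the left. Points are animals, coloured by diet, and lines are strain means. All 15 B6 animals lie above all others at Pttg1 and A2ml1 and below all others at Wdfy1 and Hddc3, 14 of 15 lie below all others at Nnt, and Cidec ranges widely within B6.

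Among the largest increases of apart genes, several genes were close to 0 in most other strains. Zfp982, a zinc finger protein, had 12.4 to 147.1 (median 78.5) CE in B6, against 0 to 22.7 (median 0) CE in the other strains. AJ was the only other strain with a median above 1 CE, at 13.8, and 14 of 15 B6 animals lay above every other animal. Acpp, prostatic acid phosphatase, had 33.2 to 260 (median 106.9) CE in B6, against 0 to 259 (median 3.58) CE in the others (4.20 ± 0.34, adjusted p = 6.5e-21). Its ranges overlap, mainly through NZO with a median of 33.2 CE. Tlr12, a Toll-like receptor of mice that recognises profilin of parasites, had 26.5 to 254 (median 119.4) CE in B6, against 0 to 298 (median 7.68) CE in the others. Here too NZO came closest, with a median of 86 CE, and no B6 animal lay above every other animal. Olig1, a transcription factor of the oligodendrocyte lineage, had medians of 51.2 CE in B6 and 2.93 CE in the others. Olfr1033, an olfactory receptor gene, had 33.1 to 75.1 (median 46.2) CE in B6, against 0 to 103.6 (median 0) CE in the others, and 129S1 stood above B6 with a median of 76.3 CE, so it was not apart.

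Lgals1, Tpm2 and Clstn3 were also among the largest increases of apart genes. Lgals1, the beta-galactoside binding protein galectin-1, had 51 to 540.2 (median 115.4) CE in B6, against 4.32 to 174.3 (median 16.2) CE in the others (2.81 ± 0.14, adjusted p = 4.08e-36). On HF its median was 192 CE in B6, against 16.5 CE in the others, and on chow 81.7 CE in B6, against 15.6 CE in the others. Tpm2, beta-tropomyosin, had 13.7 to 139.5 (median 74.9) CE in B6, against 0 to 88.1 (median 7.84) CE in the others, and 6 B6 animals lay above every other animal. Clstn3, the membrane protein calsyntenin-3, had 9.12 to 218 (median 110.2) CE in B6, against 0 to 185 (median 7.86) CE in the others, with the next highest median in NZO at 41.6 CE. Gapdh, the glycolytic enzyme often used to scale other genes, was singled out after its values were seen. It had 8102 to 13810 (median 10430) CE in B6, against 1767 to 10660 (median 3135) CE in the others (1.60 ± 0.06, adjusted p = 1.18e-49), and 7 B6 animals lay above every other animal, with 129S1 nearest at 8050 CE. Gapdh has many processed copies in the mouse genome, and how the authors' counting shared its reads with them was not tested.

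Lower in B6 than in every strain were enzymes and signalling proteins without near-identical copies. Pik3c2g, a class II phosphoinositide 3-kinase made mainly in liver, had 12.5 to 36.6 (median 24.1) CE in B6, against 23.4 to 193 (median 109.6) CE in the others (-2.15 ± 0.10, adjusted p = 2.98e-40), and 7 B6 animals lay below every other animal. Fmn2, an actin-nucleating formin, had 2.79 to 17.9 (median 6.91) CE in B6, against 9.2 to 167.7 (median 52.3) CE in the others (-2.60 ± 0.17). Cyp2c70, the P450 that makes muricholic acids, the bile acids particular to mice and rats, had 1092 to 5580 (median 3499) CE in B6, against 2123 to 20240 (median 7741) CE in the others. Its difference was -1.44 ± 0.12 (adjusted p = 4.49e-21), and strain medians outside B6 ran from 5824 CE in AJ to 12460 CE in PWK. Rgs4, a regulator of G protein signalling, and Gjc3, a connexin, were lower as well, at -1.95 ± 0.18 and -1.87 ± 0.13.

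Of the genes with the largest differences, 15 shared a near-identical stretch with other genes in the table. A stretch was counted from 300 bases at 95% identity in GENCODE M21 transcripts. Genes that share one are called copies here, though the stretch need not span the gene and some partners are otherwise unrelated. When the values of a gene and its copies were added before the fit, most of these differences shrank. A sum with a partner of far more counts shrinks a log difference whatever became of the reads, so it does not show where reads went. Of the partners named below, C1s1 (0.04 ± 0.04), Tdg (0.19 ± 0.08) and Preb (0.065 ± 0.093) did not pass the test by themselves. Ceacam1 (0.19 ± 0.06), Hnrnpa3 (0.355 ± 0.047), Cox7a2l (0.65 ± 0.07) and Tpm3 (1.44 ± 0.06) were higher in B6. Ceacam2, a cell adhesion molecule, had 0 to 7.06 (median 1.44) CE in B6, against 0 to 670 (median 178) CE in the others (-4.86 ± 0.15). AJ and NZO were low at Ceacam2 as well, with medians of 2.78 and 4.03 CE. Added to Ceacam1, with which it shares 1630 bases at 98.8% identity, the difference was -0.11 ± 0.05 (adjusted p = 0.0982). C1s2 alone differed by -5.09 ± 0.12 and with C1s1, the complement protease subunit, by -0.07 ± 0.04 (adjusted p = 0.173). B6 was not called different from 129S1 or NZO at C1s2, with medians of 1.215 and 2.81 CE, against 1.81 CE in B6. Tdg-ps together with the DNA repair gene Tdg and Gm9855 differed by -0.14 ± 0.09 (adjusted p = 0.166).

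Other sums kept a difference or turned it. Abhd1 shares 652 bases at 100% identity with Preb, and whether reads were counted by strand is not stated. Their sum differed by -0.22 ± 0.08 (adjusted p = 0.0147), against -3.87 ± 0.13 for Abhd1 alone. NZO was close to B6 at Abhd1, with medians of 13.9 CE in NZO and 11.24 CE in B6. Hddc3, a nucleotide phosphatase, differed by -3.40 ± 0.12 alone and by -0.29 ± 0.04 with Man2a2 and Ccdc82 (adjusted p = 1.34e-08). Man2a2 and Ccdc82 are other genes that share a stretch with Hddc3 and are not copies of the whole gene. The longest match of Hddc3, Gm18310, was not analysed here. Tpm3-rs7 differed by -4.28 ± 0.24 alone, and the sum with Tpm3 was higher in B6, by 0.31 ± 0.05 (adjusted p = 3.2e-07). At Tpm3-rs7 129S1 and AJ were below B6, with medians of 0.916 and 1.12 CE, against 3.65 CE in B6. Gm11847 with 18 copies, Hnrnpa3 among them, was higher by 0.11 ± 0.04 (adjusted p = 0.0235), against -5.79 ± 0.15 alone. Gm6969 with Cox7a2l differed by 0.04 ± 0.04 (adjusted p = 0.508). Cyp4a12a, H2-Q1 and Gvin1, a very large interferon-inducible GTPase, kept their direction in the sum, at -1.25 ± 0.13, 0.69 ± 0.07 and 2.08 ± 0.21. The founder table is named as aligned to the strain genomes. How reads were matched to those genomes bears on such splits, and its part in these values was not tested.

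**Figure D3:**
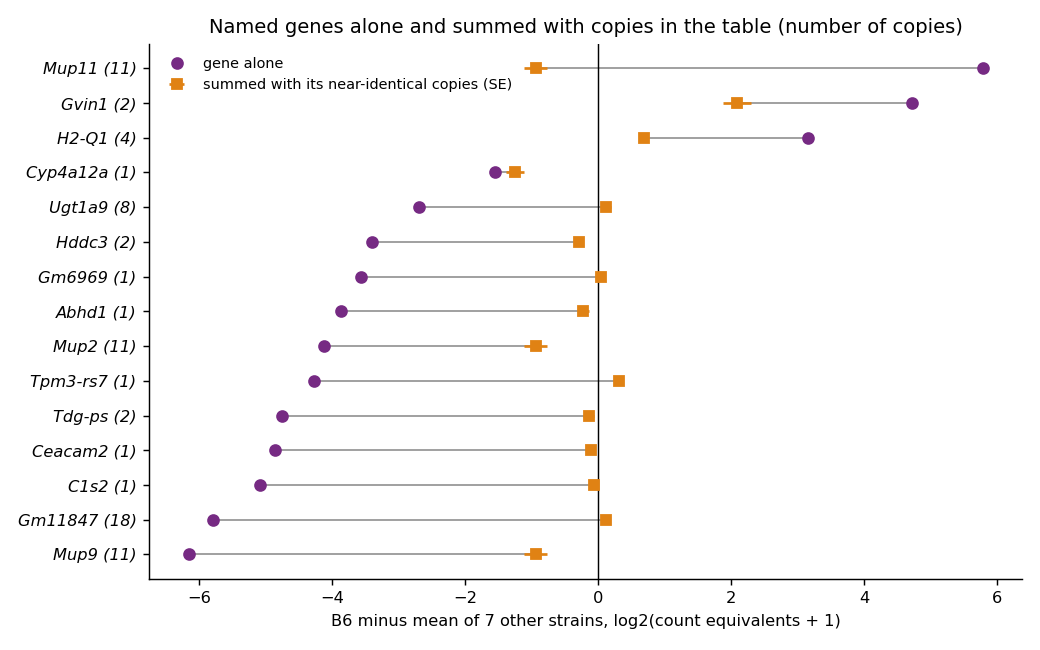
Differences of B6 minus the mean of the 7 other strains (log2) for 15 genes alone (circles) and with their near-identical copies in the table added before the fit (squares, with SE), with the number of copies in brackets. C1s2, Ceacam2, Tdg-ps, Gm6969, Gm11847 and Ugt1a9 lie near 0 once summed, Gvin1 lies at 2.08, and the 3 MUP genes share 1 sum at -0.94.

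Genes for which strain variants are well known were described whatever their values. Nnt, the mitochondrial transhydrogenase that makes NADPH, carries a deletion of coding exons in C57BL/6J. It had 259.8 to 550.3 (median 391) CE in B6, against 498 to 1614 (median 815) CE in the other strains, a difference of -1.05 ± 0.06 (adjusted p = 4.58e-35), and 14 of 15 B6 animals lay below every other animal. The remaining level was about 2.07-fold below that of the others and not at 0. Ifi202b, an interferon-inducible DNA sensor of the Ifi200 family, was at 0 in most B6 animals, with a highest value of 0.774 CE, against 0 to 135.1 (median 21) CE in the others. Its difference was -4.05 ± 0.13, and CAST had a median of 0 as well, so the gene was called against 6 strains and not against all 7. Ren1, the protease renin, of which some strains carry another copy, was not in that list and is named for the size of its decrease. It had 0 to 3.18 (median 0.901) CE in B6, against 0 to 1540 (median 54) CE in the others (-4.39 ± 0.30), with medians of 290 CE in 129S1 and 261.3 CE in NZO. AJ had a median of 0 and CAST of 3.73 CE, and Ren1 was called against 6 strains, AJ being the exception.

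Hc, complement component C5, is inactivated by a frameshift in AJ and NOD. Its median was 8512 CE in B6, against 2634 CE in AJ and 2479 CE in NOD, while 14570 CE in WSB was higher than in B6. Glo1, glyoxalase 1, lies in a segment duplicated in some strains, and its median was 2565 CE in B6, against 6129 CE in AJ and 4232 CE in 129S1. Cwc22, a splicing factor amplified in WSB, had medians of 93.7 CE in B6 and 3470 CE in WSB, against 75.1 to 116.5 CE in the others. Mx1 and Mx2, antiviral GTPases defective in most laboratory strains, had B6 medians of 13 and 52 CE. Mx1 did not pass the test against the mean (-0.10 ± 0.24, adjusted p = 0.769), with medians of 119.3 CE in NZO and 61.7 CE in PWK. Mx2 was lower (-0.73 ± 0.19, adjusted p = 0.000954), with 484 CE in CAST and 853 CE in PWK, and without the wild-derived strains it turned to 0.53. Alad, of heme synthesis, was lower at -0.33 ± 0.08 (adjusted p = 0.00064).

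Genes of MHC class I antigen presentation were mostly higher in B6. Of 18 members tested 11 were higher and 2 lower, with a median difference of 0.44, against 23.8% higher and a median of 0.01 over all genes. H2-K1, a classical class I heavy chain, had 5547 to 8213 (median 7610) CE in B6, against 735 to 6739 (median 2839) CE in the others (1.53 ± 0.07, adjusted p = 3.77e-39), and 11 B6 animals lay above every other animal. Strain medians of H2-K1 were 5409 CE in 129S1, which carries a closely related haplotype, 4509 in NZO and 3422 in AJ. They were 2683 CE in WSB, 2265 in CAST, 1112 in NOD and 923 in PWK. H2-Q7, a nonclassical chain of the Qa-2 group, had 414 to 902 (median 593) CE in B6, against 18.7 to 758 (median 176) CE in the others (2.06 ± 0.12). H2-Q1 and H2-Q6 were apart as well, at 3.15 ± 0.22 and 1.43 ± 0.16.

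Not every member moved up. Tap2, a subunit of the peptide transporter, was lower (-0.58 ± 0.08, adjusted p = 2.77e-10), and so was H2-Q2 at low levels (-1.62 ± 0.16). Tap1, the partner of Tap2, was higher by 0.40 ± 0.12 (adjusted p = 0.00481) and B2m, the light chain of all class I molecules, by 0.13 ± 0.05 (adjusted p = 0.0135). Class I genes are highly polymorphic and near-identical in sequence, so reads of 1 gene may have been given to another. Summed over the H2-K, D, Q and T genes, the level was 21580 to 31740 (median 27540) CE in B6, against 6472 to 40230 (median 14920) CE in the others. NZO had a higher median sum than B6, at 33630 CE. Among class II genes H2-Eb1 was called higher (1.195 ± 0.23, adjusted p = 7.6e-06) and the other 7 members tested did not pass the test. The call of H2-Eb1 rests on WSB and PWK, which had medians of 1.09 and 5.8 CE against a B6 median of 107.9, and without the wild-derived strains the difference was -0.36. The chow animal 10224 had 451 CE at H2-Eb1, against 62.6 to 91.2 CE in the other B6 animals on chow. Without the animals 10224 and 9937 the difference was 0.88 (adjusted p = 0.00124), and 2 other class II members were called lower.

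Interferon-induced genes were higher in B6 as a group. Type I interferon acts through a complex of STAT and IRF proteins that binds short repeats of GAAA in the promoters of its targets. Of 24 members tested 19 were higher and 0 lower, with a median difference of 0.75, against 23.8% higher and 20% lower over all genes. On HF 19 were higher, against 17.2% of all genes, and on chow 9, against 13.8% of all genes. The response to diet was not called different for any of the 24 (0 members, where 28 genes were called). Ifit3, which binds foreign RNA together with its relatives, had 70.8 to 314 (median 146.4) CE in B6, against 7.47 to 518 (median 54.7) CE in the others (1.26 ± 0.20, adjusted p = 4.61e-08). Rsad2, viperin, had 49 to 255 (median 106.6) CE in B6, against 4.72 to 209.6 (median 45.6) CE in the others (1.12 ± 0.17, adjusted p = 3.69e-08). Both groups overlap at each of these genes. NZO had medians of 146.5 CE for Ifit3 and 148.6 CE for Rsad2, at or above those of B6 (146.4 and 106.6 CE).

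Other members called higher were Usp18 (1.18), which trims the ubiquitin-like protein that Isg15 encodes, Isg15 itself (1.10), Oasl1 (1.07) and Irf7 (0.94), the factor that amplifies the response. Ifi27 had medians of 550.2 CE in B6 and 352 CE in the others (0.71 ± 0.09), and Oas2, an RNA-activated synthetase, of 38.1 CE in B6 and 22.6 CE in the others (0.96 ± 0.15). The GTPases Igtp (-0.10), Irgm1 (0.03) and Iigp1 (0.60), with Gbp2 (0.37) and Oas1g (0.45), did not pass the test. No member was apart from all 7 strains. Without CAST, PWK and WSB 13 members were higher and 1 lower.

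The promoters of these genes were read from RefSeq (GRCm38.p6), 250 bases before each start, to show the repeat that interferon factors bind. The pattern searched was GAAA repeated after any 2 bases, on either strand, so that it reads TTTC, any 2 bases and TTTC on the other, with overlapping matches counted. Sequences are given 5′ to 3′ on the strand of the gene, with 15 bases on each side where the window holds them, and capitals mark the pattern. The first 4 are interferon-induced genes that were higher in B6, and the last 2 are MHC class I genes that were.
Isg15 (chr4:156200860-156200911, minus strand): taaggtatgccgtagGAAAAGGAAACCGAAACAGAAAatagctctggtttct
Ifit1 (chr19:34640770-34640828, plus strand): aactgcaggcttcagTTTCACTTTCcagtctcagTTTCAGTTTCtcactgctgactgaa
Ifit3 (chr19:34583358-34583431, plus strand): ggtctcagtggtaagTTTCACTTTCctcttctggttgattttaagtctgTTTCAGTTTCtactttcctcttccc
Rsad2 (chr12:26456548-26456587, minus strand): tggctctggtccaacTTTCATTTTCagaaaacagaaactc
B2m (chr2:122147533-122147572, plus strand): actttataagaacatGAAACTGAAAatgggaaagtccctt
H2-T22 (chr17:36042909-36042948, minus strand): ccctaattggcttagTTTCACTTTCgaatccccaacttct
The pattern was found in 12 of the 18 interferon-induced genes with a RefSeq promoter. Of those 12 genes 8 were called higher, and of the 6 without the pattern 6 were. In the MHC class I list 3 of 14 genes with a promoter held it, and all 3 were called higher, against 6 of the 11 without it. Of all 32851 promoter windows of that length 2.98% held the pattern, and of 10016 genes tested here with a promoter 3.38% did. The letters are those of the B6 reference, and promoters of the other strains were not used here.

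The 6 genes Ifi204 to Ifi209 of the Ifi200 family on chromosome 1, DNA sensors induced by interferon, were all apart and higher, a pattern singled out after the values were seen. Ifi204 had 51.9 to 151.9 (median 75.6) CE in B6, against 5.41 to 75.6 (median 31.3) CE in the others (1.49 ± 0.15, adjusted p = 5.71e-15). Ifi206 had 5.68 to 27.9 (median 10.9) CE in B6, against 0 to 7.41 (median 0) CE in the others (3.17 ± 0.17). Differences of Ifi205, Ifi207, Ifi208 and Ifi209 were 2.24, 1.16, 2.08 and 1.86. Ifi206, Ifi209, Ifi208, Ifi207 and Ifi204 follow each other among the genes tested, and they are similar in sequence, so reads may have been shared among them. Ifi202b of the same family went the other way, as given above.

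Macrophage markers were mostly higher in B6 as well, and none of them was apart from all 7 strains. Of 15 markers of macrophages and Kupffer cells, the resident macrophages of the liver, 14 were higher in B6 and 0 lower, with a median difference of 0.60. Over all genes 23.8% were higher and 20% lower. The markers summed to 3102 to 5774 (median 3849) CE in B6, against 925 to 8037 (median 2699) CE in the others. Median sums were near that of B6 in AJ (3666 CE), NZO (3563 CE) and 129S1 (3211 CE), each with a higher highest value than B6. They were 2638 CE in NOD, 2419 in PWK, 2134 in WSB and 2060 in CAST. Marco, a scavenger receptor, rose most among the well expressed markers (1.51 ± 0.30), and Adgre1, which encodes F4/80, was higher by 0.83 ± 0.15. Clec4f, the lectin by which Kupffer cells are defined, did not pass the test (0.22 ± 0.13, adjusted p = 0.169), and no marker was at 0 in all B6 animals. Without the animals 10224 and 9937, 10 markers were higher, and without the wild-derived strains 7 were. In bulk liver more cells of a type and more RNA per cell cannot be told apart, and the part of these cells in the immune gene levels was not tested. Of 10 stellate cell and fibroblast markers 4 were higher, against 23.8% of all genes. They were the collagens Col1a1 (1.60), Col1a2 (0.89) and Col3a1 (0.97) and the proteoglycan Dcn (0.23).

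**Figure D4:**
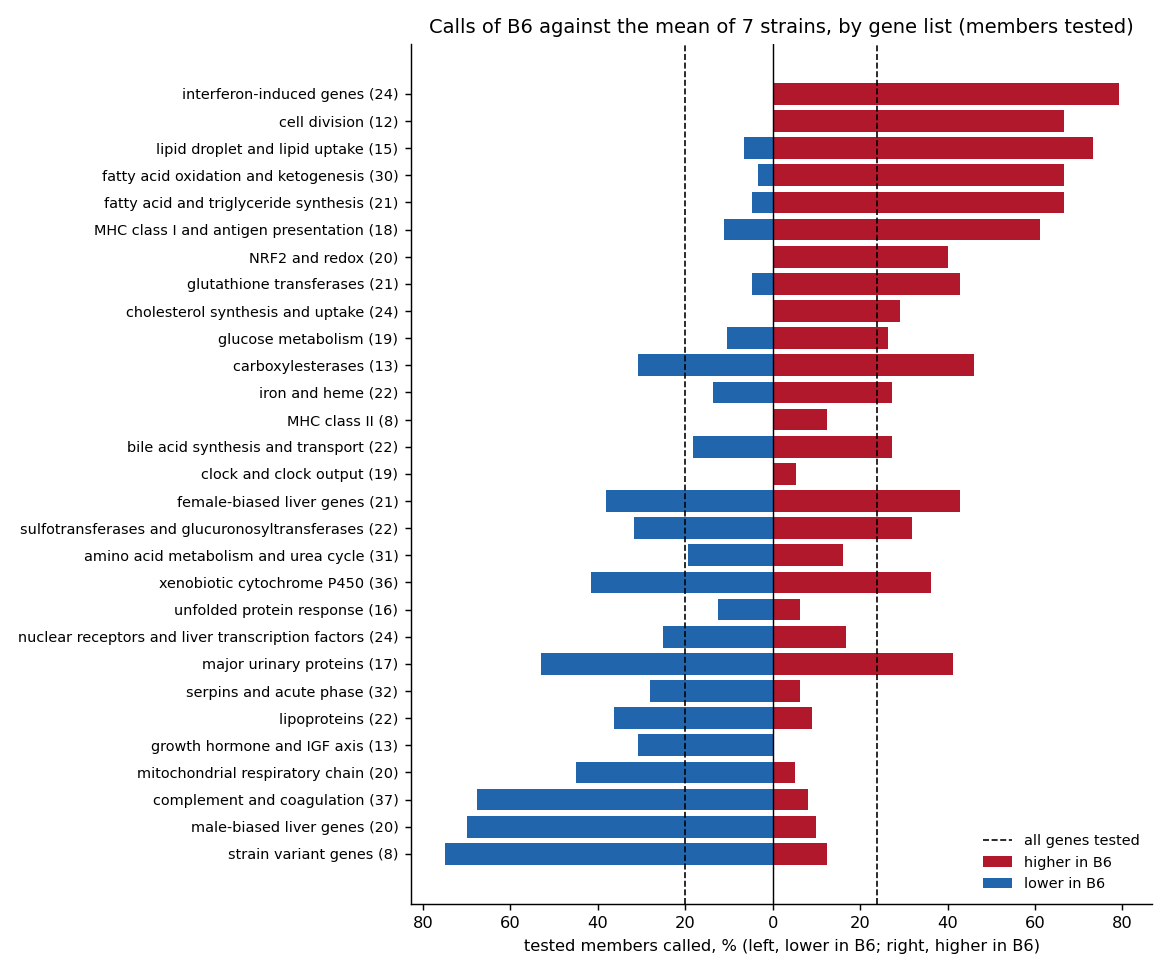
Percent of the tested members of each gene list called lower (left, blue) and higher (right, red) in B6 against the mean of the 7 other strains, with the number tested in brackets. Dashed lines mark all genes tested, 20% lower and 23.8% higher. Lists of cell type markers are not shown. Interferon-induced genes reach furthest to the right of the lists shown, with 19 of 24 higher, and 25 of 37 complement and coagulation genes lie to the left.

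Genes of fat metabolism were higher in B6 at several steps. Of 21 members of fatty acid and triglyceride synthesis 14 were higher and 1 lower (median 0.42), and of 30 of fatty acid oxidation and ketogenesis 20 were higher and 1 lower (median 0.38). Of 15 lipid droplet and lipid uptake genes 11 were higher and 1 lower (median 0.79). Over all genes 23.8% were higher and 20% lower. Scd1, the desaturase that makes oleic acid, had 26170 to 259100 (median 101900) CE in B6, against 3540 to 362200 (median 26500) CE in the others (1.86 ± 0.25, adjusted p = 4.61e-10). Fasn, fatty acid synthase, had 1203 to 9261 (median 3582) CE in B6, against 362 to 14140 (median 1679) CE in the others (1.13 ± 0.17). Srebf1, the insulin-responsive factor that drives this pathway, was higher by 1.005 ± 0.17 and Me1, which supplies NADPH, by 1.06 ± 0.17. Both groups overlap at each of these genes. Mlxipl, the sugar-responsive factor ChREBP, was the member called lower (-0.32 ± 0.10, adjusted p = 0.00717), and without the animals 10224 and 9937 no member was (0 of 21). Dgat2 (-0.09) and Lpin1 (-0.19) did not pass.

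Among oxidation genes, Cyp4a14, a fatty acid omega-hydroxylase known as a target of PPARα, the fatty acid receptor of hepatocytes, had 68 to 9210 (median 1898) CE in B6, against 0 to 18090 (median 33.8) CE in the others (4.61 ± 0.49, adjusted p = 3.46e-14). It was called against 5 strains, and its medians were 1179 CE in NZO, 652 in AJ and 529 in 129S1, against 3.61 CE in PWK and 3.68 in CAST. Vnn1, a pantetheinase, had 89.6 to 1300 (median 492.7) CE in B6, against 0 to 1212 (median 28.6) CE in the others (3.62 ± 0.24). NZO matched B6 at Vnn1, with a median of 522 CE against 492.7 CE in B6. Acot3, a peroxisomal thioesterase, was higher by 2.89 ± 0.41, and Acaa1b, the peroxisomal thiolase, was apart at 1.11 ± 0.19. Cpt1a, which admits fatty acids to mitochondria, was higher by 0.40 ± 0.09. Ppara itself was at 0.23 ± 0.13 and did not pass the test (adjusted p = 0.152). Acadvl was called higher at 0.35 ± 0.05 against CAST alone, whose median was 432 CE against 2873 CE in B6, and without the wild-derived strains its difference was -0.11.

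Pparg, the receptor that drives fat storage in adipocytes, had the widest difference among the 24 nuclear receptors and liver factors listed. It had 36.1 to 262 (median 76) CE in B6, against 0 to 142.2 (median 8.8) CE in the others (2.78 ± 0.18, adjusted p = 1.1e-27), with NZO nearest at 69.2 CE. Of genes known as its targets, Plin4 was higher by 2.27 ± 0.27, Cidec by 2.53 ± 0.34 and Mogat1, a monoacylglycerol acyltransferase, by 2.26 ± 0.21. G0s2, the inhibitor of the main triglyceride lipase, was apart at 2.13 ± 0.34, and Plin2, the commonest droplet coat protein of hepatocytes, was higher by 0.96 ± 0.17. Cidea, Cidec and G0s2 were the 3 members apart from all strains. The fatty acid carrier Cd36 had 173.4 to 2893 (median 968) CE in B6, against 72.6 to 3099 (median 294) CE in the others (1.197 ± 0.15). NZO was above B6 at Cd36, with a median of 1858 CE, and B6 was called lower than NZO (-0.867 ± 0.195, limma, adjusted p = 0.000188). Of 6 adipocyte markers, summed, the level was 27 to 446.3 (median 101.4) CE in B6, against 14.8 to 321.5 (median 48.5) CE in the others. PWK had a higher median sum than B6, at 106.3 CE, and the remaining strains ran from 22 CE in WSB to 68.9 CE in CAST. Cfd was apart and higher (3.34 ± 0.23) and Fabp4 did not pass the test (0.40 ± 0.18, adjusted p = 0.0605). The other 4 were too low to be tested, with Lep at 0 in every B6 animal and B6 medians of Adipoq, Plin1 and Retn at 0.

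In cholesterol synthesis and uptake 7 of 24 members were higher and 0 lower, a share higher near the 23.8% over all genes. Sc5d, a late enzyme of the pathway, was apart, with 824 to 2590 (median 1540) CE in B6 and 323 to 2083 (median 679) CE in the others (1.13 ± 0.11, adjusted p = 1.8e-15). Cyp51, an earlier enzyme that removes a methyl group from lanosterol, had 131.1 to 1768 (median 271) CE in B6, against 30.1 to 1832 (median 285) CE in the others (0.71 ± 0.22, adjusted p = 0.00532). The model, which averages log values and weights strains and diets equally, put Cyp51 higher, although the median over B6 animals was below that over the other animals. The chow animal 10224, with 148.4 CE, lay below the rest of the B6 chow group at Cyp51. Without the animals 10224 and 9937, 10 members were higher.

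Genes for complement and coagulation factors, which hepatocytes secrete into plasma, were mostly lower. Of 37 members 25 were lower and 3 higher, with a median difference of -0.29, against 20% lower over all genes. The count was 16 lower and 6 higher when animals were scaled to their total, and 20 lower and 4 higher without the animals 10224 and 9937. Plg, plasminogen, had 8942 to 20440 (median 15730) CE in B6, against 14160 to 29510 (median 21560) CE in the others (-0.49 ± 0.05, adjusted p = 1.26e-15). F10, coagulation factor X, had 1532 to 3102 (median 2483) CE in B6, against 2514 to 6272 (median 3372) CE in the others (-0.47 ± 0.05, adjusted p = 1.23e-15), and 8 B6 animals lay below every other animal. Both were apart, as were C8a (-0.63 ± 0.08) and the complement regulator Cfi (-0.34 ± 0.06). F11 (-0.84 ± 0.10) and C9 (-0.80 ± 0.08) were lower by more, against some of the strains. The fibrinogen chains Fga (-0.34) and Fgg (-0.36) were lower, while Fgb (-0.29) did not pass. C4a had 252 to 3167 (median 986) CE in B6, against 185 to 17920 (median 6477) CE in the others (-1.95 ± 0.13), but PWK was lower than B6 with a median of 289 CE, and C4a shares most of its sequence with C4b (-0.20 ± 0.07).

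Of 32 serpins and acute phase genes 9 were lower and 2 higher, a share lower not far from the 20% over all genes, and without the animals 10224 and 9937, 10 were lower and 4 higher. The share depends on the strains compared. Without CAST, PWK and WSB 16 were lower and 3 higher, where 2202 of 12935 genes tested were lower. Serpina1b, an alpha-1-antitrypsin paralog, had 29100 to 44670 (median 40430) CE in B6, against 37180 to 93950 (median 49590) CE in the others (-0.41 ± 0.05), and Serpina1c was higher (0.41 ± 0.08), which near-identical copies make uncertain. Apcs, serum amyloid P, was lower, at -1.22 ± 0.26. The acute phase genes Saa1 (-0.47), Saa2 (-0.23) and Hp (-0.23) did not pass the test. Of 22 lipoprotein genes 8 were lower and 2 higher, against 20% and 23.8% of all genes. Scarb1, the HDL receptor, was lower, at -0.52 ± 0.06, and Apof was apart and lower, at -0.36 ± 0.05. Apob (-0.02) and Apoe (0.12) did not pass. Under total scaling 6 lipoprotein genes were higher and 5 lower, and without the animals 10224 and 9937, 5 were higher and 6 lower. Trf, transferrin, had medians of 100900 CE in B6 and 141100 CE in the others (-0.44 ± 0.09).

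Genes that mouse livers express at higher levels in males were mostly lower in B6 males. Of 20 members 14 were lower and 2 higher, with a median of -0.83, against 20% lower and 23.8% higher over all genes. Cyp7b1, which hydroxylates oxysterols, had 237 to 3661 (median 1044) CE in B6, against 311 to 21830 (median 5588) CE in the others (-2.02 ± 0.16, adjusted p = 5.81e-21). Cyp4a12a, a fatty acid hydroxylase nearly absent from female liver, was apart with 659 to 1787 (median 1143) CE in B6, against 594 to 7244 (median 3598) CE in the others (-1.56 ± 0.14). C6, a complement component, was lower, at -0.89 ± 0.10, Hsd3b5, a steroid dehydrogenase, by -1.60 ± 0.35 and Selenbp2 by -2.20 ± 0.28. Mup20, the MUP known as darcin, was higher (3.29 ± 0.24), with 19630 to 84840 (median 39870) CE in B6, against 32.5 to 99660 (median 5744) CE in the others. PWK had a higher median than B6 at Mup20, 50070 CE. Without CAST, PWK and WSB 8 members were lower and 3 higher, and without the animals 10224 and 9937, 12 were lower.

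Genes higher in female liver showed no common direction, with 9 of 21 members higher and 8 lower, against 23.8% and 20% of all genes. Cyp39a1, an oxysterol hydroxylase, had 86.7 to 755 (median 143.5) CE in B6, against 0 to 893 (median 22.9) CE in the others (3.42 ± 0.21, adjusted p = 1.32e-28), while CAST was above B6 with a median of 313 CE. Cyp17a1 was higher by 1.98 ± 0.24 and the peroxisomal transporter Abcd2 by 2.39 ± 0.22. Cyp3a41a (-2.94) and Sult3a1 (-1.95) were lower, at B6 medians under 10 CE. Of the growth hormone and IGF axis 4 of 13 members were lower, against 20% of all genes. Among them were the growth factor Igf1 at -0.34 ± 0.07 (adjusted p = 6.01e-05) and its binding protein Igfbp3 at -0.47 ± 0.12, and the receptor Ghr did not pass (-0.10). Without the animals 10224 and 9937, 2 members were lower.

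The MUPs, pheromone carriers that the male liver secretes for the urine, differed gene by gene in opposite directions. Of 17 members 7 were higher and 9 lower, against 23.8% and 20% of all genes. Mup9 had 87 to 6125 (median 882) CE in B6, against 8861 to 535500 (median 64990) CE in the others (-6.16 ± 0.20), and Mup11 had 3703 to 115300 (median 73460) CE in B6, against 58.5 to 78290 (median 647) CE in the others (5.78 ± 0.28). Each shares 909 to 930 bases at 98.9 to 99% identity with its closest relative, so the split between them depends on how reads were assigned. The 12 genes that share such stretches, Mup2, Mup9 and Mup11 among them, summed to 36040 to 717400 (median 469200) CE in B6, against 73910 to 1841000 (median 670100) CE in the others. The sum was lower in B6, at -0.94 ± 0.18 (adjusted p = 3.83e-06). Over all MUP genes and pseudogenes the B6 median was 554600 CE, against 739400 CE in the others. The HF animal 9937 was the lowest of the HF group at Mup11 (6288 CE), Mup9 (132.9 CE) and Mup2 (49.6 CE), and without the animals 10224 and 9937 the differences were 6.31, -5.70 and -3.55.

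Xenobiotic cytochrome P450 genes went both ways, with 13 of 36 higher and 15 lower, against 23.8% and 20% of all genes. Cyp2c37, an arachidonic acid epoxygenase, was apart, with 92.9 to 4403 (median 2544) CE in B6, against 46.1 to 1167 (median 430.2) CE in the others (2.33 ± 0.21, adjusted p = 5.87e-18). Of 15 B6 animals 13 lay above every other animal, and the chow animal 10224 held the lowest B6 value. Its relative Cyp2c39 was lower, with 5.37 to 29.9 (median 13.9) CE in B6, against 3.22 to 4439 (median 266) CE in the others (-3.74 ± 0.22), and PWK and WSB were as low as B6 with medians of 19.1 and 21.1 CE. Cyp3a11, the main drug-metabolising P450 of mouse liver, was higher by 1.63 ± 0.28. Cyp2e1, which oxidises ethanol, was lower, at -0.26 ± 0.10. The Cyp2c genes are close paralogs, so reads may have been shared among them.

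Among transferases, glutathione transferases were higher more often than lower, 9 against 1 of 21, and without the animals 10224 and 9937, 9 against 3. Over all genes 23.8% were higher and 20% lower. The share called either way was 47.6% in this list and 43.7% over all genes. Gstm3 had 93.4 to 1975 (median 170) CE in B6, against 0 to 674 (median 109.4) CE in the others (2.73 ± 0.24), and its highest B6 values came from the animals 10224 (1975 CE) and 9937 (1448 CE), without which the difference was 2.29. Gstt1 was higher by 1.15 ± 0.15 and Gstm7 lower, at -0.83 ± 0.09. Ugt1a9, a glucuronosyltransferase, had 129.6 to 1052 (median 415) CE in B6, against 529.5 to 6683 (median 2694) CE in the others (-2.70 ± 0.12), and Ugt1a1, which conjugates bilirubin, was apart and higher, with 1074 to 4996 (median 3739) CE in B6, against 750 to 3571 (median 1493) CE in the others (1.21 ± 0.10). Both are made from 1 locus with shared last exons, and the sum of Ugt1a9 with 8 relatives differed by 0.12 ± 0.07 (adjusted p = 0.127). Ces1g, a carboxylesterase that limits triglyceride export, was higher by 1.83 ± 0.20, and NZO and AJ had medians of 1520 and 823 CE, against 807 CE in B6.

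In the bile acid list 6 of 22 members were higher and 4 lower, shares near the 23.8% and 20% over all genes. Abcc3, which exports conjugates into blood, had 590 to 2690 (median 1272) CE in B6, against 8.17 to 2359 (median 367) CE in the others (2.12 ± 0.15, adjusted p = 1.15e-24). Cyp7a1, the rate-limiting enzyme of bile acid synthesis, did not pass the test (0.46 ± 0.47, adjusted p = 0.455). Slco1a1, a male-biased uptake transporter, was lower at -1.29 ± 0.18. Its lowest B6 values came from the animals 10224 (111.02 CE) and 9937 (150.4 CE), without which the difference was -0.68 (adjusted p = 1.66e-08).

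Genes of core metabolism were called about as often as all genes or less often, except those of the respiratory chain. Of 31 amino acid and urea cycle genes 5 were higher and 6 lower, against 23.8% and 20% of all genes. Under total scaling 11 were higher and 2 lower, and without the animals 10224 and 9937, 7 and 4. Ahcy, which clears S-adenosylhomocysteine, had 7913 to 21230 (median 14870) CE in B6, against 1703 to 24520 (median 4257) CE in the others (1.43 ± 0.10, adjusted p = 9.99e-27), and AJ (14800 CE) was level with B6 (14870 CE). Of 19 glucose genes 5 were higher and 2 lower, and without the animals 10224 and 9937, 7 and 1, with Pklr, liver pyruvate kinase, higher by 0.84 ± 0.16. Of 20 respiratory chain genes 9 were lower and 1 higher, most by small margins. Under total scaling 2 were lower and 5 higher, and without the animals 10224 and 9937, 5 were lower and 1 higher, so that list has no stable direction. Its higher member, Cox7a2l, the near-identical partner of Gm6969, was apart with 499.8 to 612 (median 543) CE in B6, against 97.8 to 539.5 (median 392) CE in the others (0.65 ± 0.07). The mitochondrial transcripts mt-Nd1 (0.54 ± 0.06) and mt-Nd2 (0.83 ± 0.06), 2 of 15 mitochondrial genes tested, were apart and higher, and were singled out after their values were seen.

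The remaining lists are given by their counts, against 23.8% higher and 20% lower over all genes. Of 19 clock genes 1 was higher, Bhlhe40 (0.62 ± 0.10, apart), and 0 were lower, and of 16 genes of the unfolded protein response 1 was higher and 2 lower, with Pdia6 apart and lower, at -0.62 ± 0.08. Without CAST, PWK and WSB, 7 genes of the unfolded protein response were lower and 0 higher, where 2202 of 12935 genes tested were lower. Of 20 genes of the NRF2 and redox list 8 were higher and 0 lower, among them Srxn1, sulfiredoxin, which was apart (0.60 ± 0.10). Of 12 cell division genes 8 were higher and 0 lower, with Rrm2, a subunit of ribonucleotide reductase, at 1.72 ± 0.20 and Ccnd1 at 1.22 ± 0.19, and without the animals 10224 and 9937, 4 were higher. Of 22 iron and heme genes 6 were higher and 3 lower, and without the animals 10224 and 9937, 4 and 2, and the hormone Hamp did not pass (0.49). Of 24 nuclear receptors and liver factors 4 were higher and 6 lower, and without the animals 10224 and 9937, 4 and 4, with Hnf4a, a master factor of hepatocytes, lower, at -0.23 ± 0.08, and Foxa3 apart at -0.54 ± 0.09. Of the endothelial markers Stab2 was apart and lower (-0.56 ± 0.07), and the other 9 did not pass.

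Seen within each diet, the differences of B6 were similar in direction. On HF 4399 genes were called (32.3%), 2350 higher (17.2%) and 2049 lower (15%). On chow 3420 were called (25.1%), 1875 higher (13.8%) and 1545 lower (11.3%), by contrasts that share no animal. Called with the same sign in both were 2573 genes, which is 58.5% of those on HF and 75.2% of those on chow, and 2 were called with opposite signs. Of the 302 apart genes 300 were called the same way on both diets. Apart genes were chosen from these same animals averaged over both diets, so that count was largely set by the choice. The response to HF was compared between B6 and the mean of the other strains by the interaction of strain and diet. It was called at 28 genes (0.205%), with HF minus chow in B6 above that of the others at 18 (0.132%) and below it at 10 (0.0734%), while 797 genes (5.85%) had an unadjusted p under 0.05. Leaving out 1 B6 animal at a time moved the count between 16 (without the HF animal 7669) and 44 (without the HF animal 7275). In simulated data of this design, with the same dispersion for every gene, 38% of 2-fold differences in response were recovered. A count this low therefore does not show that responses were alike.

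Cidea and Cfd separated most. Cidea, a droplet protein that fuses lipid droplets, had 2.56 to 329 (median 91.7) CE in B6 on HF, against 0 to 42.2 (median 0) CE in the other strains on HF. On chow it had 0 to 2.49 (median 0) CE in B6, against 0 to 2.81 (median 0) CE in the others. The response in B6 exceeded that of the others by 4.99 ± 0.47 on the log2 scale (limma, adjusted p = 1.26e-14). Cfd, the complement protease adipsin, had 25.2 to 327 (median 67.2) CE in B6 on HF, against 0 to 11.5 (median 0) CE in the others, so that all 8 B6 animals on HF lay above all others on HF. On chow it had 0 to 8.88 (median 0.93) CE in B6, against 0 to 15.5 (median 0) CE in the others (4.61 ± 0.46, adjusted p = 1.02e-13). Both genes are known from adipocytes, and Cfd is 1 of the 6 adipocyte markers listed. On HF those 6 markers summed to 101.4 to 446.3 (median 171.01) CE in B6, against 16.3 to 321.5 (median 51.8) CE in the others. Adipoq, Lep and Plin1 were at 0 in all 8 B6 animals on HF, and Retn was under 1 CE. Fabp4 had 52.3 to 163.2 (median 75.8) CE in B6 on HF, against 16.3 to 320.6 (median 50.2) CE in the others, so the sum differed mainly through Cfd and to a lesser degree through Fabp4.

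**Figure D5:**
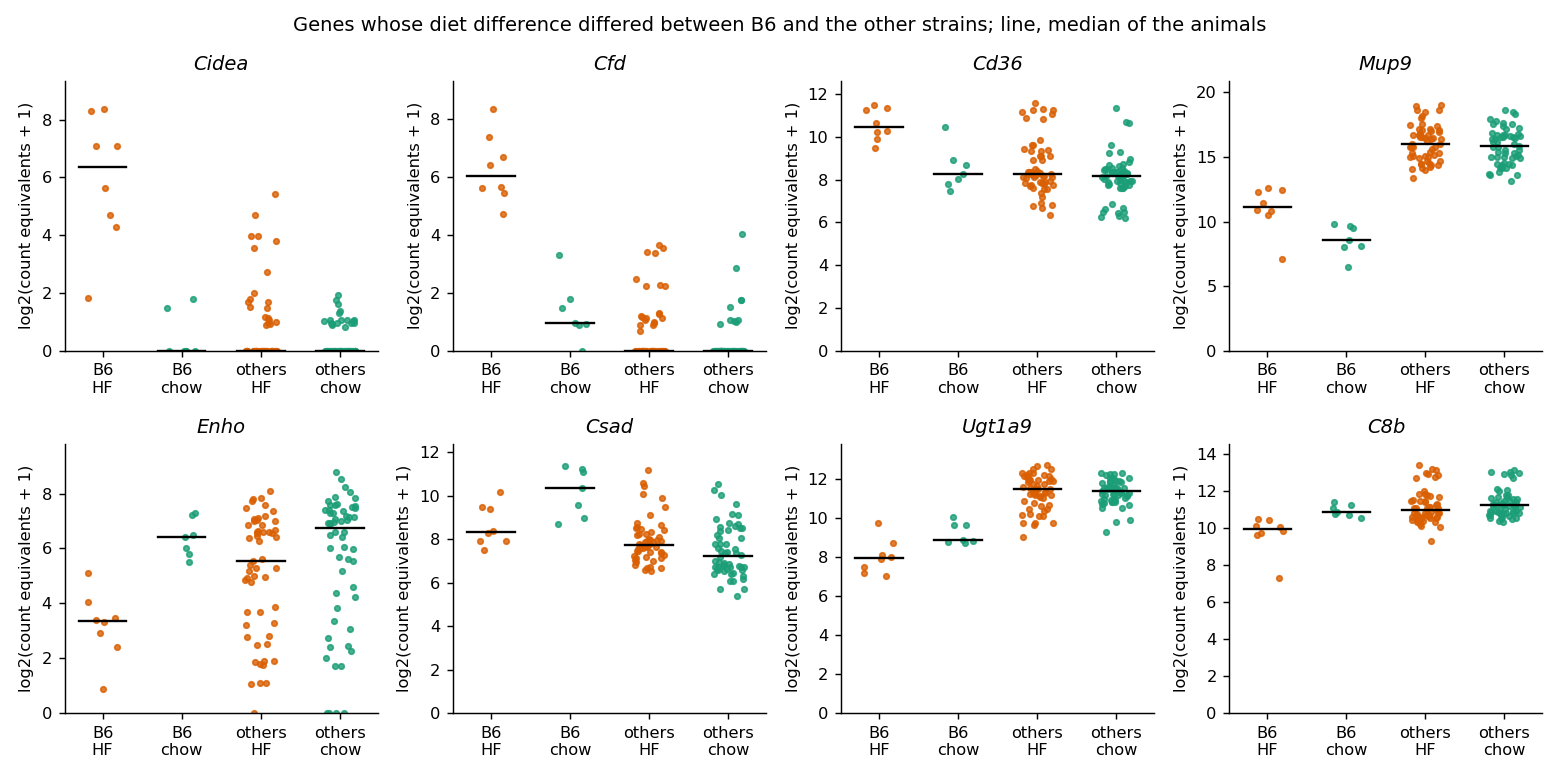
Levels of 8 genes with a called difference in diet response, as log2(count equivalents + 1), in B6 on HF, B6 on chow, other strains on HF and other strains on chow. Points are animals and lines are medians. Cidea and Cfd are raised in B6 on HF, where Cd36 has a median of 1418 CE, against 308 CE in B6 on chow.

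Cd36 had 709 to 2893 (median 1418) CE in B6 on HF, against 81.2 to 3099 (median 302) CE in the others on HF. On chow the levels were close, with 173.4 to 1430 (median 308) CE in B6 and 72.6 to 2595 (median 289) CE in the others (1.58 ± 0.30, adjusted p = 0.00103). This call was lost without the wild-derived strains, at 1.05 (adjusted p = 0.632). Over both diets NZO had a higher Cd36 median than B6, 1858 against 968 CE. Csad, which makes the taurine used to conjugate bile acids, had 181 to 1169 (median 321) CE in B6 on HF, against 93.1 to 2298 (median 211) CE in the others, and 421 to 2637 (median 1295) CE in B6 on chow, against 41.3 to 1501 (median 150.7) CE in the others. Its excess in B6 was thus larger on chow (-2.03 ± 0.39, adjusted p = 0.00103). Enho, which encodes the secreted peptide adropin, had medians of 9.32 CE in B6 on HF and 45.4 CE in the others, and on chow its level was 44.8 to 155.6 (median 83.8) CE in B6, against 0 to 442.8 CE in the others (-2.70 ± 0.50, adjusted p = 0.000853). C8b, a complement component, had medians of 1007 CE in B6 on HF and 2057 CE in the others, and on chow 1905 CE in B6 and 2423 CE in the others (-1.08 ± 0.23). Without the animals 10224 and 9937 its call was lost (-0.79, adjusted p = 0.0631), as it was without the wild-derived strains (-0.91, adjusted p = 0.373). Mup9 (2.13 ± 0.40) and Ugt1a9 (-1.196 ± 0.24) were called as well, and both have near-identical copies.

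Of the 15 droplet and lipid uptake genes 2 had a called difference in diet response, Cidea and Cd36, against 0.205% of all genes. Plin4 and Cidec, 2 of the others, were singled out after their values were seen. Plin4 had a median of 1054 CE in B6 on HF, against 66.7 CE in the others, and 139.1 CE in B6 on chow, against 52.4 CE in the others (1.94 ± 0.54, adjusted p = 0.141). Cidec had a median of 362 CE in B6 on HF, against 26.2 CE in the others, and 43 CE in B6 on chow, against 16.4 CE in the others (2.52 ± 0.68, adjusted p = 0.105). Neither difference in response passed the test. Of the other called genes, singled out after their values were seen, Themis, a T cell signalling gene, had medians of 107.8 CE in B6 on HF and 2.36 CE in the others, and on chow 3.44 CE in B6 and 1.03 CE in the others (3.31 ± 0.51, adjusted p = 7.91e-06). Cyp2b9, a P450 higher in female liver, had medians of 150.5 CE in B6 on HF and 1.16 CE in the others, and on chow 2.79 CE in B6 and 1.2 CE in the others (3.43 ± 0.73, adjusted p = 0.00658). The other strains were split at Cyp2b9. Over both diets the median was 641.5 CE in AJ, 90.8 in NOD and 66.8 in NZO, against 61.2 CE in B6. B6 was called lower than AJ and NOD, while 129S1, CAST, PWK and WSB had medians at or near 0.

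Apart genes lay on every chromosome but Y, though not evenly. The share of tested genes that were apart was 4.41% on chromosome 1 (34 of 771), 2.88% on chromosome 2 (31 of 1077) and 1.2% on chromosome 11 (13 of 1085), against 2.22% over all. Of 295 apart genes placed on the reference 39 had another apart gene as a neighbour among the genes tested (13.2%), against 4.36% of all genes. The 18 such runs included the 5 Ifi200 genes, H2-Q6 with H2-Q7 on chromosome 17, F10 with Proz on chromosome 8, both lower, and mt-Nd1 with mt-Nd2.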

How the data were processed

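Liver RNA of 128 founder males was measured by RNA sequencing. The deposited founder table holds signal values that the authors scaled so that each animal's upper quartile is 1. Reads went through CASAVA 1.8.0, Bowtie 0.12.8 and RSEM 1.2.1 on NCBIM37, per the submitters' processing notes. The founder table used here is the one named as aligned to the strain genomes, and how those genomes were built was not examined. Low values of a column were whole multiples of 1 step in 81.2 to 85.5% of cases (within 0.1), so they are scaled estimated counts, not whole counts, and a log-scale test was used. Recovered depth was 5.84 to 14 M estimated counts per animal, which limits genes with few counts. All 128 columns matched a label and 0 did not.

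Values times 114.433 (CE) were tested where at least 7 animals had 10 CE, which left 13626 of 24965 genes. limma 3.58.1 in R 4.3.3, with a mean-variance trend, fitted log2(CE + 1) on 16 means of strain and diet for all animals kept. B6 was compared with the equal-weight mean of the 7 other strains, with each strain, within each diet and in its diet response, with Benjamini-Hochberg adjustment over all genes. B6 8438 and NOD 8264 were left out. Each animal is a separate mouse. Members and lists were chosen with earlier results of these data known. Named genes were up to 12 apart genes each way by size, up to 6 each way by size without that condition, up to 6 by diet response, up to 4 per list and the strain variant genes, with a mean of at least 5 on the log2 scale for the first kinds and without predicted genes. Further list members are examples chosen with their values seen, and some genes are not reported here. Symbols came from GENCODE M21 and copies from blastn 2.17.0. On simulated data of this design 66% of 1.5-fold and 94% of 2-fold differences were recovered, with 4 false calls. The simulation gave each gene the same expected level in all animals and a dispersion of 0.1, and changed 100 genes at each fold. It held no other strain differences and no unequal spreads, so recovery in the real data can differ. Other pseudocounts, filters, scalings, lane, trend, voom, a null fold of 1.2 and left-out strains or animals were tried.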

Additional observations from a re-analysis of the deposited data

Results flagged for a closer look

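Single B6 animals lay far from the rest of their diet group (Dixon's test at its 95% critical value, groups of 7 and 8) at 54 of 269 groups checked, or 20.1%, where chance flags about 1 in 20. The chow animal 10224 held 20 of these and the HF animal 9937 held 17. The cause was not tested. The chow animal 10224 lay below its group at Zfp982 with 12.4, Cyp4a12a with 659, Cyp2c37 with 92.9, Ugt3a2 with 1174, Ugt1a1 with 1074, Ugt1a6a with 596, Cyp51 with 148.4, Slco1a1 with 111.02, Acadvl with 1964, Pklr with 406, Glul with 2145, Idh1 with 1466 and Nr3c1 with 369.8 CE. It lay above its group at Gvin1 with 1648, H2-Eb1 with 451, Ifi27 with 1083, Oas2 with 93.7, Gstm3 with 1975, Srxn1 with 723 and Ccnd1 with 969 CE. The HF animal 9937 lay below its group at Mup11 with 6288, Mup9 with 132.9, Mup2 with 49.6, C8b with 160.7, Glo1 with 2009, Hc with 5198, Cyp7b1 with 237, Slco1a1 with 150.4, F10 with 1532, Plg with 8942, Serpina1b with 29098, Serpina3k with 19847, Saa4 with 2782 and C6 with 805 CE. It lay above its group at H2-Q1 with 420.1, Gstm3 with 1448 and Srxn1 with 766 CE. The HF animal 7275 lay below its group at Alas1 with 1205 CE. It lay above its group at Gvin1 with 1566, A2ml1 with 131.5 and Trf with 119700 CE. The HF animal 8408 lay below its group at Gstm7 with 163.2 and Gstm6 with 279.5 CE. It lay above its group at Ifi202b with 0.774 CE. The chow animal 8638 lay below its group at Ceacam2 with 0, Gstm7 with 162.2 and Sdhb with 675 CE. The HF animal 9952 lay above its group at Oat with 18936, Idh1 with 3562 and Thrb with 412 CE. The chow animal 8453 lay below its group at Bhlhe40 with 800.1 CE. It lay above its group at Olfr1033 with 75.1 CE. The chow animal 7320 lay below its group at Tpm3-rs7 with 0 CE. The HF animal 7669 lay below its group at Tpm3-rs7 with 0 CE.

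At 8 named genes the response to HF differed between B6 and the mean of the other strains by the interaction test (limma, adjusted p under 0.05). The difference of HF minus chow in B6 was above that of the others at Cidea (4.99), Cfd (4.61), Mup9 (2.13) and Cd36 (1.58) on the log2 scale. It was below that of the others at Enho (-2.70), Csad (-2.03), Ugt1a9 (-1.20) and C8b (-1.08), and mean B6 levels of these 4 genes were lower on HF than on chow.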

How the results depend on the processing

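Under other pseudocounts, filters, scalings, lane, trend and left-out single animals at most 8 values of named genes changed direction or side of the threshold, with a null fold of 1.2 there were 28, and without the wild-derived strains 18. The 302 apart genes became 462 with total scaling, 512 with voom, 86 with a null fold of 1.2, 478 without NZO and 783 without CAST, PWK and WSB. Against the mean the null fold left 1954 genes. On chow voom called 5154 genes and the null fold 1219. On HF the null fold called 1510 and leaving out the wild-derived strains 2918. The 28 diet responses became 60 with a pseudocount of 10, 45 with no filter, 13 with the null fold, 53 without NZO and 11 without the wild-derived strains. The cause was not tested. Leaving out each B6 animal in turn gave 5523 to 5832 genes against the mean, 262 to 312 apart, 2879 to 3419 on chow, 3725 to 4448 on HF and 16 to 44 diet responses. Without HF animal 7669 that count was 16, and it was 17 without chow animal 8638 or HF animal 9952 and 44 without HF animal 7275. Mx1, which missed the threshold, turned to 0.023 with total scaling, 0.086 with voom and 0.37 without NZO, and it ranged from -0.189 to 0.036 (without HF animal 9952) over left-out animals. Without the wild-derived strains Mx2 turned to 0.53, H2-Eb1 to -0.36 and Acadvl to -0.11. Summed with copies, Gm11847 turned to 0.11, Gm6969 to 0.036, Mup11 to -0.94, Tpm3-rs7 to 0.31 and Ugt1a9 to 0.12. The diet response of Mup9 lost its call with B6 8438 and NOD 8264 kept (1.25, adjusted p = 0.716).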
